A study of Mus musculus with 2 samples.

Results

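Leukocyte integrins and selectin ligands were followed through 7 genes, Itgam, Itgb2, Itgal, Itgax, Itga4, Selplg and Cd44, which were taken by symbol from the 31053 genes of a single-cell count matrix. All 7 were found, with between 445 UMIs (Itgax) and 7386 UMIs (Cd44) in the cells kept. The cells came from subcutaneous tumors of LLC, a mouse lung carcinoma line, grown in C57BL/6 mice of 8 to 12 weeks with intact Smad3 (Smad3+/+, Smad3-WT) or in mice without it (Smad3-/-, Smad3-KO). CD11b+Ly6G+ cells were sorted from pooled tumors and gave 1 library per genotype with a 5′ kit. The deletion is in the cells of the host, and the inoculated LLC cells are the same line in both groups. Because each genotype has 1 library, there is no replicate error, no test of genotype was made, and every interval below is a 95% interval that covers counting error only.

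Integrins are pairs of an alpha and a beta chain that bind other cells or matrix once signals inside the cell have opened them. Itgb2 encodes CD18, the beta chain shared by the leukocyte integrins LFA-1 (alpha chain Itgal, CD11a), Mac-1 (Itgam, CD11b) and p150,95 (Itgax, CD11c), while Itga4 encodes the alpha chain of VLA-4, which pairs with another beta chain and binds Vcam1. Before integrins hold a leukocyte on a vessel wall, selectins slow it down, and Selplg encodes PSGL-1, their main ligand on leukocytes, while Cd44 encodes the hyaluronan receptor, some glycosylated forms of which also bind selectins. CD11b is a standard surface marker of neutrophils and other myeloid cells, and here it was one of the proteins of the sort gate.

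On the mouse genome (GRCm38, GENCODE M21), 3 of the alpha chain genes lie on the plus strand of chromosome 7: Itgal at chr7:127296260-127335138, Itgam at chr7:128062640-128118491 and, 11055 bases after its end, Itgax at chr7:128129547-128150657. Itgb2 lies at chr10:77530252-77565708, Itga4 at chr2:79255426-79333123, Selplg on the minus strand at chr5:113818536-113832644 and Cd44 on the minus strand at chr2:102811141-102901665. Itgam, the gate gene, has a neighbour that limits its counts: the predicted gene Gm49368 starts inside the first bases of Itgam on the same strand and covers 3450 of its 5024 exonic bases. Reads that fit both genes are normally dropped by Cell Ranger, so Itgam counts here are a lower limit, and how many reads were lost was not measured. Only 148 UMIs of Gm49368 itself were in the kept cells, against 3199 of Itgam. The RefSeq windows before the transcription start were given for 4 of the 7 genes, and those of the adjacent pair Itgam and Itgax are shown because the pair shares a locus and differs in the cells that express it. Each window is the 250 bases before the start, written 5′ to 3′ on the plus strand. Capitals mark GAGGAA, the core of a PU.1-type site, or its reverse complement TTCCTC, and TGAGTCA, an AP-1 site, or its reverse complement TGACTCA.
Itgam, chr7:128062390-128062639: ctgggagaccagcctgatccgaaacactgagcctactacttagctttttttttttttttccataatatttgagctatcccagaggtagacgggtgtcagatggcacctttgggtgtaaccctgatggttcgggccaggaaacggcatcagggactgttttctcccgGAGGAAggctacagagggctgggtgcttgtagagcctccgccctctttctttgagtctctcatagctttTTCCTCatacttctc
Itgax, chr7:128129300-128129549: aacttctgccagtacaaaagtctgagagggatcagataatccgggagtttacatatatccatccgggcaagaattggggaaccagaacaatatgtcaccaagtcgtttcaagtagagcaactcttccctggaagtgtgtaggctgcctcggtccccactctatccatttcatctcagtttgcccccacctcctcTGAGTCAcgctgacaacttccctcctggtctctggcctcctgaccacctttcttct
The Itgam window holds GAGGAA starting 84 bases before the start and TTCCTC starting 15 bases before it, and no AP-1 letters. The Itgax window holds TGAGTCA starting 56 bases before the start and neither form of GAGGAA. Of the other 2 windows, Cd44 has 2 copies of TTCCTC and Itga4 has no match. Among 32851 windows of the same length, 23.3% hold GAGGAA on either strand and 4.46% hold TGAGTCA, so a match is common for the former, and these letters are a description and not evidence of binding.

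After filtering, 3520 Smad3-WT and 2433 Smad3-KO cells with 12176201 and 4146792 UMIs were sorted into classes by marker genes, with the 7 genes left out of the clustering. Neutrophil-like cells were 50.5% of the Smad3-WT cells (1776) and 38.1% of the Smad3-KO cells (927), at a median of 743.5 and 1042 UMIs. The rest differed between the libraries. Smad3-WT held 624 monocyte-like, 340 macrophage-like and 428 LLC carcinoma-like cells, of which Smad3-KO had 24, 28 and 29. Smad3-KO held 400 T-like and 661 B-like cells, of which Smad3-WT had 12 and 4. Of the Smad3-KO T-like cells, 23 lay in a cluster (median 2868 UMIs) in which 8 T markers and also 7 B markers were raised. The part of mixed droplets in the T-like levels was not tested. The 29 Smad3-KO cells of the carcinoma class were shallow, with 620 UMIs in the median cell where the 428 of Smad3-WT had 12241.5, so their values are not read. Clusters without a class name are called by their leading genes: H2-Eb1 and Mgl2 (214 and 68 cells, also with Cd209a), Gzma and Nkg7 (35 and 37 cells) and Mreg and Lcn2 (0.511% of Smad3-WT and 5.71% of Smad3-KO cells). Levels are given as UMIs per 1000000 UMIs of a class in a library (CPM), and are compared between classes for 1 gene at a time. Smad3 itself stood at 14.6 CPM in all Smad3-WT cells and at 77.4 in all Smad3-KO cells, which checks nothing about the genotypes, because the allele is disrupted in late exons and 5′ tags lie near the transcript's start. Ly6g, the other gate gene, was at 24.2 CPM in neutrophil-like cells of Smad3-WT and at 208 in those of Smad3-KO. It was seen in 29 of the 1776 Smad3-WT cells and in 102 of the 927 Smad3-KO cells. Ly6g is among the leading genes of 1 neutrophil-like cluster, led by Ngp and Camp, with 3 Smad3-WT and 68 Smad3-KO cells. The part of that cluster in the Ly6g levels was not tested.

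Itgam transcripts were not limited to neutrophil-like cells in this CD11b sort. In Smad3-WT, Itgam was highest in monocyte-like cells at 446 CPM (interval 419 to 475) and macrophage-like cells at 423 (393 to 454), followed by neutrophil-like cells at 334 (306 to 363) and the H2-Eb1 and Mgl2 cluster at 252 (223 to 284). The intervals of monocyte-like and macrophage-like cells overlap, and both lie above that of neutrophil-like cells. As a share of all Itgam UMIs of the Smad3-WT library, monocyte-like cells held 35.8%, macrophage-like cells 26.7% and neutrophil-like cells 19.2%. In Smad3-KO, neutrophil-like cells had 224 CPM (197 to 253) and held 64.5% of the Itgam UMIs.

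In T-like and dendritic-like cells of the sort, Itgam was low or not seen. T-like cells of Smad3-KO had 5 Itgam UMIs in 400 cells, 8.20 CPM (2.66 to 19.1), which is 27.3-fold under the neutrophil-like cells of the same library. That quotient rests on few UMIs: it was 8.19 with looser limits on cells, 9.24 with 30 principal components in the clustering and 95.5 without cells that carried markers of another lineage. Itgam was seen in 1.25% of these T-like cells (median 1305 UMIs) against 22.8% of Smad3-KO neutrophil-like cells and 23.8% of Smad3-WT ones. With each cell thinned to 500 UMIs the shares were 0.50%, 10.1% and 14.6%. The level of T-like cells was 0.0366 of the neutrophil-like level. The 10 neutrophil markers had a median quotient of 0.0233 in the same cells, with a range from 0.00560 to 0.0521. The part of RNA from other cells in the T-like share was not tested. Dendritic-like cells of Smad3-KO had 0 Itgam UMIs in 167687, with an interval that reaches 22.0 CPM.

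Itgam also appeared in B-like, carcinoma-like and fibroblast-like cells, and its level there is given beside markers of other cells. B-like cells of Smad3-KO had 57.5 CPM (44.8 to 72.8), and it lay mostly in 1 of their 2 clusters. In the cluster led by Igkc and Ighd (208 cells) Itgam was 137 CPM and the neutrophil markers stood at a median of 0.315 of the neutrophil-like level. In the cluster led by Cd79a and Iglc2 (453 cells) Itgam was 1.42 CPM, from 1 UMI, and the neutrophil markers stood at 0.00328. The LLC carcinoma-like cells of Smad3-WT divided in the same way. Their larger cluster (320 cells) had 9.24 CPM of Itgam and macrophage markers at 0.00155 of the macrophage-like level, and the smaller one (108 cells) had 131 CPM with macrophage markers at 0.226. Fibroblast-like cells had 163 CPM in Smad3-WT, with macrophage markers at 0.182, and 24.4 in Smad3-KO, with macrophage markers at 0.0145. The part of mixed droplets in these values was not tested.

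**Figure D1:**
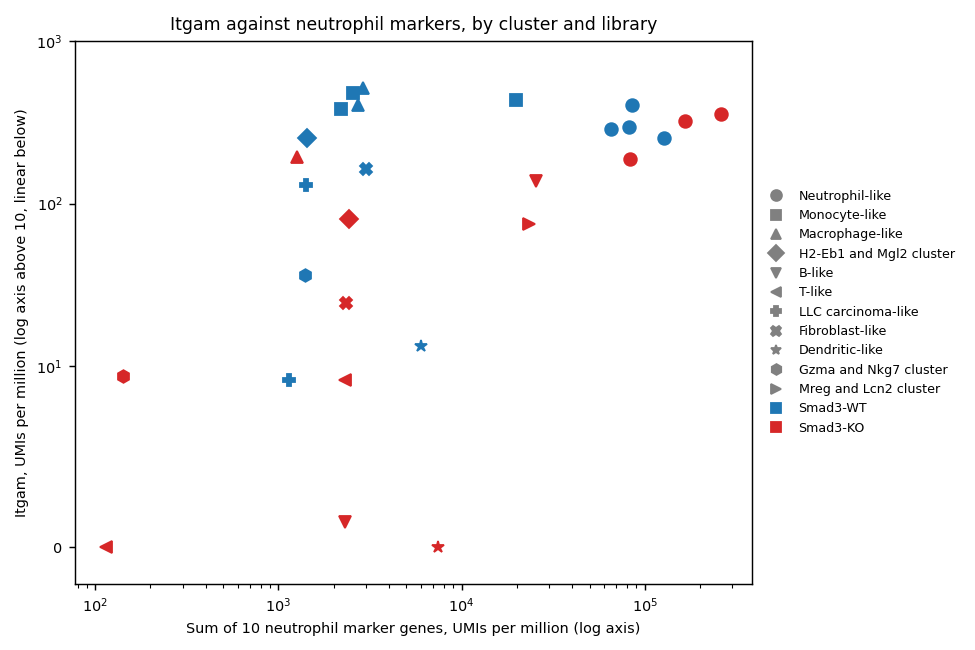
Itgam level (CPM, log axis above 10 and linear below) against the summed level of 10 neutrophil marker genes (CPM, log axis) for each cluster and library with at least 20 cells, with Smad3-KO carcinoma-like cells left out. Symbols are classes and colours are libraries. The neutrophil-like clusters stand at the right between 187 and 402 CPM of Itgam, the Smad3-WT monocyte-like and macrophage-like clusters reach 383 to 510 with mostly far fewer neutrophil transcripts, and the 2 B-like clusters stand at 1.42 and 137.

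Itgb2, the beta chain that the CD11 chains need, was also found in lymphoid cells. Its Smad3-WT levels were 396 CPM (360 to 436) in the H2-Eb1 and Mgl2 cluster, 392 (366 to 418) in monocyte-like, 298 (273 to 324) in macrophage-like and 244 (221 to 269) in neutrophil-like cells. The Gzma and Nkg7 cluster had 299 in Smad3-WT and 180 in Smad3-KO, and Smad3-KO T-like cells had 159 (129 to 194). Those T-like cells stood at 0.848 of the neutrophil-like Itgb2 level of their library, and at 0.0366 of its Itgam level. Carcinoma-like cells of Smad3-WT had 43.4 CPM and B-like cells of Smad3-KO 83.4.

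Itgal, the alpha chain of LFA-1, was highest in the Gzma and Nkg7 cluster, whose leading genes belong to cytotoxic lymphocytes, at 294 CPM (200 to 418) in Smad3-KO and 248 (172 to 346) in Smad3-WT, then in Smad3-KO T-like cells at 156 (126 to 190). Neutrophil-like cells followed at 111 in Smad3-KO and 106 in Smad3-WT. Monocyte-like and macrophage-like cells of Smad3-WT had 49.9 and 17.5 CPM, under the neutrophil-like level of the same library with intervals that do not overlap. Among 15 class and library units of at least 30 cells, each of the 14 pairs of neighbours in the order of Itgal levels had overlapping intervals.

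Itgax had few UMIs, so its order is coarse. Its highest levels were in the H2-Eb1 and Mgl2 cluster at 96.3 CPM (78.8 to 117) in Smad3-WT and 76.1 in Smad3-KO, and in Smad3-KO dendritic-like cells at 83.5 (45.6 to 140). These clusters express major histocompatibility complex class II or dendritic genes, and Itgax is widely used as a dendritic marker. Neutrophil-like cells of Smad3-WT came next among the larger classes at 62.1 (50.5 to 75.6), above the monocyte-like cells at 31.7 and the macrophage-like cells, where 23 UMIs were found in 340 cells. In T-like cells 1 UMI was found, 1.64 CPM.

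Itga4 was low in neutrophil-like cells and higher in lymphoid and dendritic-like cells. Neutrophil-like cells had 33.5 CPM (25.2 to 43.8) in Smad3-WT and 29.5 (20.4 to 41.2) in Smad3-KO. Smad3-KO T-like cells had 113 (88.0 to 143) and B-like cells 100.1 (83.0 to 120), both above the neutrophil-like cells of that library with no overlap. The 23 dendritic-like cells of Smad3-WT had 347 CPM from 29 UMIs, and the 53 of Smad3-KO had 89.5 (50.1 to 148). Carcinoma-like and fibroblast-like cells of Smad3-WT had 2.66 and 9.25 CPM.

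Selplg was high in cytotoxic and dendritic-like cells as well as in neutrophil-like cells. Smad3-KO values were 845 CPM (678 to 1039) in the Gzma and Nkg7 cluster, 626 (512 to 758) in dendritic-like cells, 408 (359 to 462) in T-like cells, 305 (274 to 338) in neutrophil-like cells and 136 (116 to 158) in B-like cells. Smad3-WT neutrophil-like cells had 558 (522 to 596), more than the monocyte-like cells at 232 and the macrophage-like cells at 147, with no overlap, and 23 dendritic-like cells of that library had 1042 (834 to 1285). Fibroblast-like cells stood at 55.5 and 35.3 and carcinoma-like cells at 25.8.

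Cd44 was highest in neutrophil-like cells of both libraries, 1508 CPM (1449 to 1569) in Smad3-WT and 901 (847 to 958) in Smad3-KO. Smad3-WT monocyte-like cells followed at 738 (702 to 774), and these first 3 units are apart from each other. The Mreg and Lcn2 cluster of Smad3-KO came next at 424 (315 to 557). Macrophage-like cells and the H2-Eb1 and Mgl2 cluster of Smad3-WT had 339 and 317 CPM, and T-like cells of Smad3-KO had 64.0 (45.5 to 87.4). After thinning to 500 UMIs per cell, Cd44 was seen in 50.5% of neutrophil-like cells in Smad3-WT, in 36.0% of those in Smad3-KO and in 2.75% of T-like cells. Before thinning the shares were 65.1%, 57.2% and 7.25%.

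**Figure D2:**
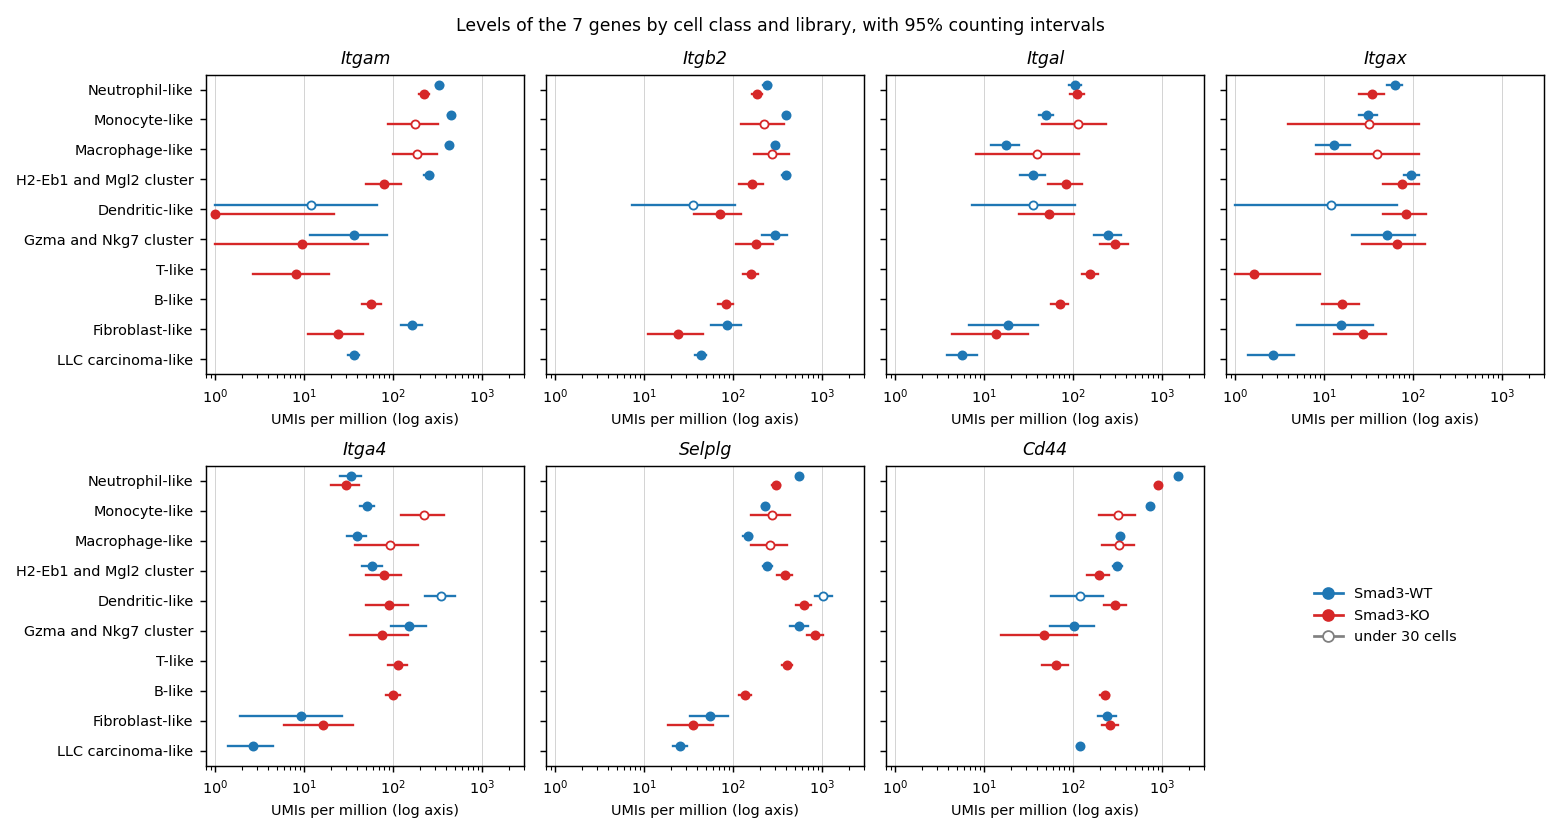
Level of each gene in CPM (log axis) for each cell class with at least 20 cells in a library, with 95% counting intervals, Smad3-WT and Smad3-KO in separate colours, open points for classes under 30 cells, and a level of 0 drawn at 1. Carcinoma-like cells of Smad3-KO and the Mreg and Lcn2 cluster are left out. Itgam runs from 446 in Smad3-WT monocyte-like cells to 8.20 in Smad3-KO T-like cells and 0 in Smad3-KO dendritic-like cells, while Itgal is highest in the Gzma and Nkg7 cluster and Cd44 in neutrophil-like cells.

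Neutrophil-like cells answer the comparison the study was made for, Smad3-KO against Smad3-WT. Of the 7 genes, 3 were at least 1.5-fold lower in Smad3-KO and 0 were at least 1.5-fold higher, while of 5822 genes with at least 20 UMIs in these cells 43.4% were lower and 12.2% higher by that rule. The median ratio of all these genes was 0.725, so ratios in these cells are shifted by -0.46 on the log2 scale, and the members' median of 0.671 stands near it. Read against the background, a count of 3 of 7 is about the share of all genes.

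Selplg had 558 CPM in Smad3-WT and 305 in Smad3-KO, a ratio of 0.546 (0.481 to 0.619). Itgax had 62.1 and 34.7 CPM, a ratio of 0.559 (0.377 to 0.814), and Cd44 had 1508 and 901 CPM, a ratio of 0.597 (0.555 to 0.643). These are the 3 genes past 1.5-fold. With every cell thinned to 500 UMIs Selplg was at 0.682 and fell short of it. That left 2 genes, Itgax at 0.462 and Cd44 at 0.618, and the share of all genes was not counted there. Just short of that limit stood Itgam, at 334 and 224 CPM with a ratio of 0.671 (0.577 to 0.780). Under some other settings of the processing Itgam passed the limit, such as with 30 principal components (0.642). Itgb2 had 244 and 188 CPM and a ratio of 0.768 (0.648 to 0.909). Itga4, at 33.5 and 29.5 CPM, had a ratio of 0.880 (0.555 to 1.38), and Itgal, at 106 and 111 CPM, had 1.05 (0.825 to 1.32), so on the CPM scale neither difference was detectable at this depth. Divided by the shift of all genes, the ratios became 0.753 for Selplg, 0.771 for Itgax, 0.824 for Cd44, 0.926 for Itgam, 1.06 for Itgb2, 1.21 for Itga4 and 1.44 for Itgal, so Itgb2 and Itga4 changed side. On that scale the intervals of Itgam (0.795 to 1.08), Itgb2 (0.893 to 1.25) and Itgax (0.520 to 1.12) came to include 1 and that of Itgal (1.14 to 1.83) no longer did, while Selplg (0.664 to 0.853) and Cd44 (0.766 to 0.887) stayed under 1.

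The class is not made of the same cells in both libraries. Smad3-WT neutrophil-like cells lay mostly in clusters led by Ifit3b and Egr1 (614 cells), by G0s2, Retnlg and Cxcr2 (394), by Hcar2 and Cxcl3 (388) and by Mmp9 and Csf1 (363). Smad3-KO cells lay mostly in a cluster led by Il1a and Csf3 (710), with 128 in the G0s2 and Cxcr2 cluster and 68 in a cluster of granule genes led by Ngp and Camp. The summed level of 7 markers of immature neutrophils was 861 CPM in Smad3-WT and 17373 in Smad3-KO, and that of the 10 neutrophil markers 88915 and 115381. Macrophage markers summed to 287 and 88.6 CPM, T markers to 11.8 and 99.0 and B markers to 67.1 and 92.9, and Camp was at 0 in Smad3-WT. Without the Ngp and Camp cluster, 5 of the 7 genes were lower by at least 1.5-fold, Itgam at 0.605 and Itgb2 at 0.640 being the added ones, beside 51.0% lower and 11.5% higher of 5571 genes, whose median ratio was 0.653. Over all neutrophil-like cells, that cluster included, 0 of the 7 genes were past 1.5-fold once ratios were divided by the shift of all genes. On that scale 46.9% of all genes were past 1.5-fold in either direction. Cell state and genotype cannot be told apart where a cluster holds nearly all its cells from 1 library.

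Within Smad3-WT the clusters differed from each other for most members. Differences between clusters of 1 library were not counted over all genes, so whether they are particular to the members was not tested. Selplg was 790 CPM in the Mmp9 and Csf1 cluster and 748 in the G0s2 and Cxcr2 cluster but 242 (189 to 306) in the Hcar2 and Cxcl3 cluster. Itgal ran from 263 (207 to 329) in the G0s2 and Cxcr2 cluster to 20.5 (7.52 to 44.6) in the Hcar2 and Cxcl3 cluster, with the other two at 84.7 and 88.2. Itga4 had 83.1 CPM in the G0s2 and Cxcr2 cluster and 0 UMIs in the Hcar2 and Cxcl3 cluster, where 3 UMIs would be 10.2 CPM. The Hcar2 and Cxcl3 cluster was thus the lowest of the 4 for Itgb2, Itgal, Itgax, Itga4, Selplg and Cd44, though its interval overlaps that of at least 1 other cluster for Itgb2, Itgax and Cd44. Itgam went another way, with 402 CPM (358 to 450) in the Ifit3b and Egr1 cluster and 253 to 294 in the other 3, of which the Hcar2 and Cxcl3 cluster (235 to 363) overlaps it. The 6 monocyte markers summed to 724 CPM in the Ifit3b and Egr1 cluster and to 140 to 197 in the other 3. The part of monocyte RNA in the Itgam levels of these clusters was not tested.

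In Smad3-KO the Il1a and Csf3 cluster was the lowest of its 3 clusters for Itgam at 187 CPM (159 to 217), Itgb2 at 143 (119 to 171) and Selplg at 223 (193 to 257), with an interval that overlaps 1 of the other clusters in each case. The Ngp and Camp cluster had 356 CPM of Itgam (271 to 461) and 381 of Itgb2 (292 to 488), and the lowest Cd44 at 455 (357 to 571). Selplg reached 991 CPM (802 to 1210) in the G0s2 and Cxcr2 cluster, above both others with no overlap.

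**Figure D3:**
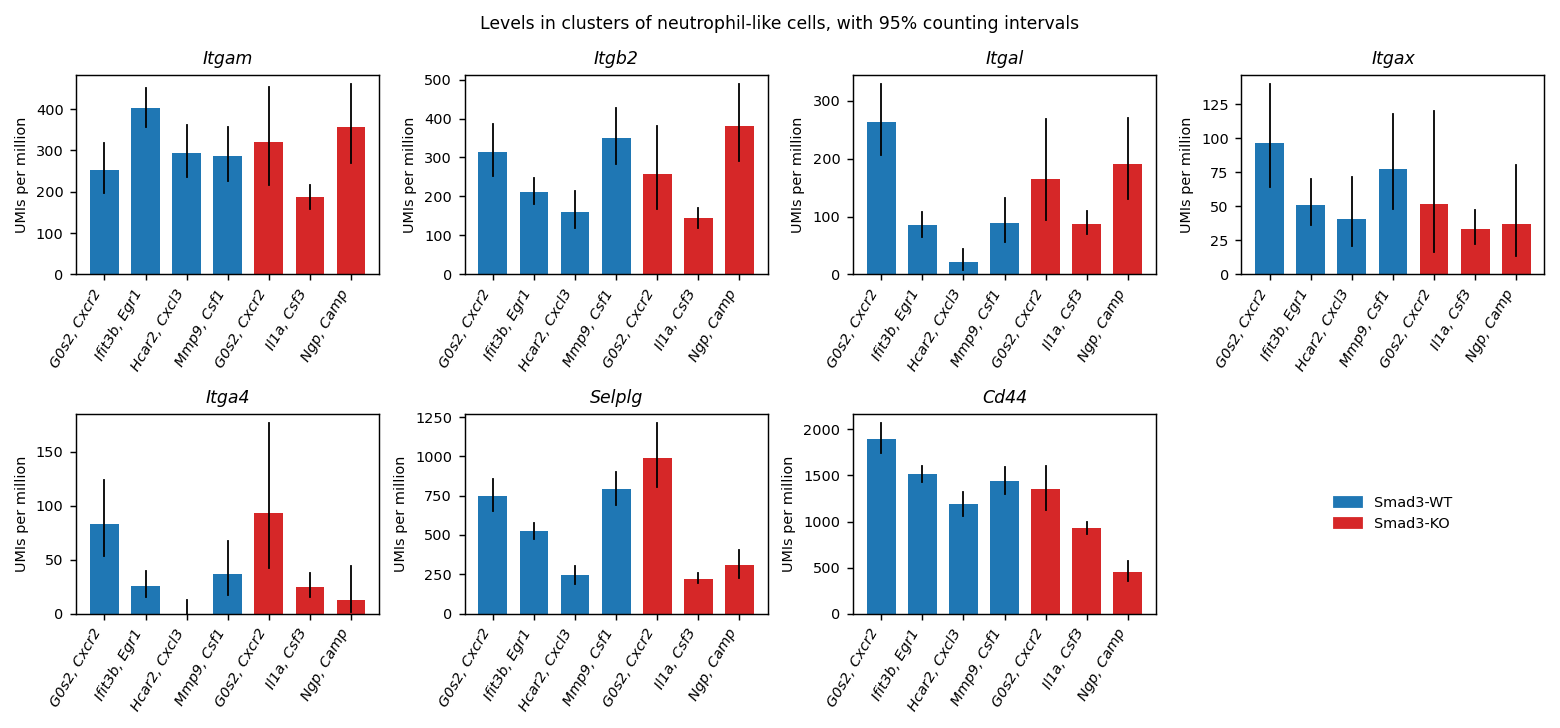
Level of each gene (CPM, axis from 0) in the clusters of neutrophil-like cells with at least 20 cells of a library, named by leading genes, with 95% counting intervals and the libraries in separate colours. Selplg is at 748 and 991 in the G0s2 and Cxcr2 cluster of the libraries and at 223 in the Il1a and Csf3 cluster that holds most Smad3-KO cells, and Itga4 is at 0 in the Hcar2 and Cxcl3 cluster.

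The G0s2 and Cxcr2 cluster is the neutrophil-like cluster in which both libraries have over 100 cells, at a median of 660.5 and 688.5 UMIs. Whether its cells are in the same state in both libraries was not measured. Its neutrophil markers summed to 127667 CPM in Smad3-WT and 165526 in Smad3-KO, its macrophage markers to 218 and 51.6 and its monocyte markers to 197 and 485. In this cluster the direction of Selplg turned: 748 CPM in Smad3-WT and 991 in Smad3-KO, a ratio of 1.33 (1.03 to 1.69). Itgam was 253 and 320 CPM, a ratio of 1.27 (0.804 to 1.95). Cd44 stayed lower in Smad3-KO, at 1899.9 and 1352 CPM with a ratio of 0.712 (0.584 to 0.862). The remaining ratios were 0.819 for Itgb2, 0.628 for Itgal, 0.532 for Itgax and 1.12 for Itga4, each with an interval that includes 1. Here 2 of the 7 genes were lower by at least 1.5-fold (Itgal and Itgax) and 0 higher, beside 25.3% lower and 16.2% higher of 1981 genes and a median ratio of all genes of 0.937. The lower Selplg of Smad3-KO neutrophil-like cells as a class was therefore not seen in this cluster, and the lower Cd44 was.

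Outside neutrophil-like cells, the H2-Eb1 and Mgl2 cluster could be compared over 214 and 68 cells. Itgam was 252 CPM in Smad3-WT and 79.9 (49.5 to 122) in Smad3-KO, a ratio of 0.317 (0.193 to 0.494). Itgb2 was lower too, 396 and 164 CPM, with a ratio of 0.413 (0.295 to 0.566), and Cd44 had a ratio of 0.613 (0.448 to 0.825). Itgal and Selplg were higher in Smad3-KO, by 2.34 (1.32 to 4.05) and 1.55 (1.22 to 1.96), while Itgax at 0.790 and Itga4 at 1.36 had intervals that include 1. In this cluster 3 of 7 genes were lower and 2 higher by at least 1.5-fold, beside 24.9% and 21.2% of 6417 genes, whose median ratio was 0.976. The macrophage markers stood at 0.238 and 0.126 of the macrophage-like level of their library in Smad3-WT and Smad3-KO. The monocyte markers stood at 0.506 and 0.341 of the monocyte-like level, which in Smad3-KO rests on 24 cells. The part of these differences in the Itgam and Itgb2 values was not tested.

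**Figure D4:**
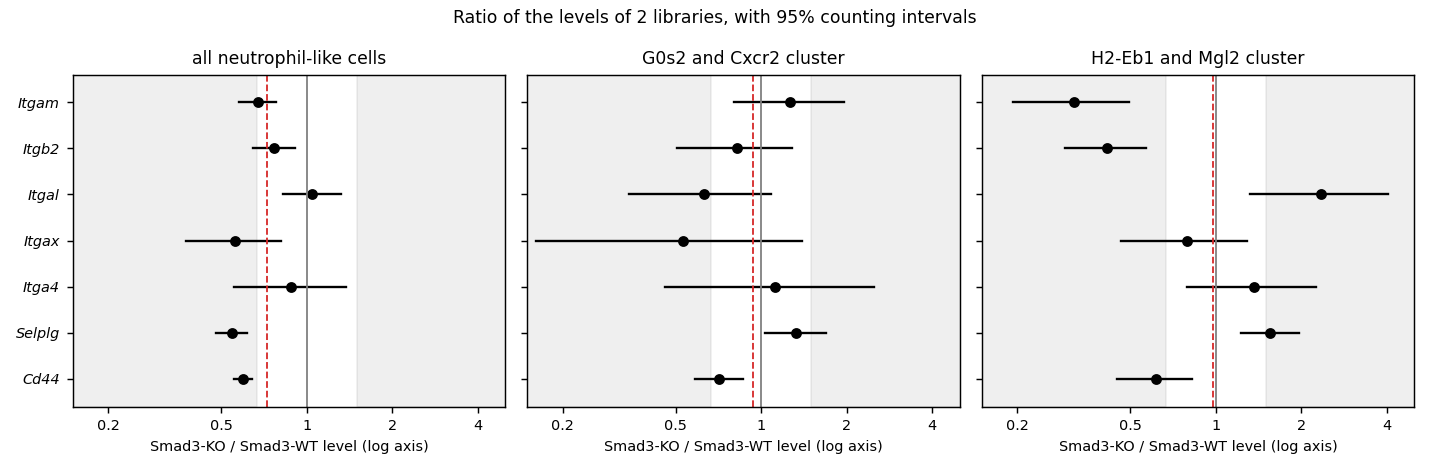
Ratio of the Smad3-KO to the Smad3-WT level (log axis) of each gene in all neutrophil-like cells, in their G0s2 and Cxcr2 cluster and in the H2-Eb1 and Mgl2 cluster, with 95% counting intervals. The dashed line is the median ratio of all genes in those cells, the grey fields are past 1.5-fold. Selplg is at 0.546 in the first panel and at 1.33 and 1.55 in the others, and Cd44 is under 1 in each.

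In the Gzma and Nkg7 cluster Selplg was again higher in Smad3-KO, with 76 UMIs in 35 Smad3-WT cells, 89 in 37 Smad3-KO cells and a ratio of 1.53 (1.11 to 2.10), and Itgal was 248 and 294 CPM with an interval of the ratio from 0.706 to 1.99. The neutrophil markers stood in this cluster at a median of 0.0158 of the neutrophil-like level in Smad3-WT and 0.000216 in Smad3-KO, and their part in the Selplg ratio was not tested. Of the 4 members with at least 20 UMIs there, 1 was higher and 2 lower by at least 1.5-fold, beside 12.9% and 24.0% of 1668 genes. Macrophage-like and monocyte-like cells of Smad3-KO were few. In macrophage-like cells Itgam had a ratio of 0.438 (0.238 to 0.740) from 14 Smad3-KO UMIs and Selplg 1.80 (1.08 to 2.84) from 20, and the members' median was 1.80 with 4 higher and 1 lower, beside 25.5% and 31.2% of 7224 genes. Of those higher, only Selplg had an interval that excludes 1. Itgal and Itgax rested on 3 Smad3-KO UMIs each and Itga4 on 7. These values depend on the processing: Itgam turned to 1.68 with no filter on cells, 1.12 with looser limits and 1.05 at a clustering resolution of 1.0, and the median to 0.983 without cells that carried markers of another lineage. In monocyte-like cells Itgam was at 0.398 (0.198 to 0.715), Cd44 at 0.438 (0.267 to 0.679) and Itga4 at 4.37 (2.32 to 7.63), with 3 members lower and 2 higher beside 33.5% and 27.7% of 7496 genes. Both classes rest on 28 and 24 Smad3-KO cells. Dendritic-like cells (23 and 53, most of them in a cluster led by Ccl22 and Ccr7) had Itga4 at 0.258 (0.128 to 0.497), Selplg at 0.601 (0.448 to 0.808) and Cd44 at 2.49 (1.25 to 5.51), so that 2 of 3 counted members were lower and 1 higher, beside 22.2% and 25.9% of 1765 genes. The rest of the dendritic-like cells, 3 in Smad3-WT and 14 in Smad3-KO, lay in a cluster led by Siglech. The mixture thus differed between the libraries, and its part in these ratios was not tested. In fibroblast-like cells (46 and 67) Itgam was at 0.149 (0.0648 to 0.306) and Itgb2 at 0.283 (0.117 to 0.617), with the macrophage markers that differ between the libraries given above, and 3 of 4 counted members were lower and 0 higher, beside 17.8% and 19.3% of 4839 genes. Cd44, which fibroblasts make themselves, was at 1.08 there (0.794 to 1.47).

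Over all kept cells, classes of different shares in the libraries are summed. Itgam was 230 CPM in Smad3-WT and 96.5 in Smad3-KO (ratio 0.420), while Itgal at 35.1 and 96.0 CPM (ratio 2.74) and Itga4 at 30.6 and 72.6 (ratio 2.38) were higher in Smad3-KO. Of the Smad3-KO UMIs of Itga4, 39.9% were in B-like and 22.9% in T-like cells, classes with 4 and 12 cells in Smad3-WT. Selplg had a ratio of 1.47 over all cells and of 0.546 in neutrophil-like cells.

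Around the members, the adhesion pathway of neutrophil-like cells was counted in 7 lists of 87 genes, of which those with at least 20 UMIs were read, beside the same 43.4% lower and 12.2% higher of all genes. Of the other integrin subunits 5 of 21 were counted, 2 higher, 0 lower, with a median ratio of 1.34. Itgb1, the usual partner of Itga4, had 77.6 CPM in Smad3-WT and 104 in Smad3-KO (1.34, 1.04 to 1.74). Itgav, an alpha chain that binds vitronectin, had 21.1 and 51.2 (2.43, 1.56 to 3.81), and Itgb7, the other partner of Itga4, had 13.7 and 10.4 (0.762, 0.344 to 1.61). Itgad, which completes the group of CD11 chains, had 0 UMIs in these cells.

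Genes of integrin activation and its adaptors, inhibitors included, split in both directions. Of 17 counted, 2 were higher, 5 lower and 10 between, with a median of 0.948. Rap1b and Rap1a, small GTPases that start integrin activation, had ratios of 0.870 (0.774 to 0.979) and 0.852 (0.703 to 1.03), and Lyn, a Src family kinase, 0.948 (0.817 to 1.10). Sharpin, an inhibitor of integrin activation, had the lowest ratio, with 70 and 15 UMIs (0.299, 0.159 to 0.528). Among proteins that leukocyte integrins bind, 3 were counted. Icam1, the ligand of LFA-1 and Mac-1, had 72.1 CPM in Smad3-WT and 464 in Smad3-KO neutrophil-like cells (6.43, 5.25 to 7.93). C3, whose fragment iC3b binds Mac-1, had 225 and 278 (1.23, 1.06 to 1.44). Fn1, bound by VLA-4, had 62.7 and 19.1 (0.304, 0.183 to 0.486), from 101 and 22 of its 7883 UMIs in all kept cells. Fn1 is also among the monocyte markers, and the part of monocyte RNA in its values was not tested.

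Selp, which encodes P-selectin, had 26.1 CPM in Smad3-WT and 7.81 in Smad3-KO (0.299, 0.128 to 0.624). Of Sele, the E-selectin gene, 2 UMIs were found, both in Smad3-WT. Of the enzymes that put sugars and sulfate on selectin ligands, 4 of 7 counted were lower and 0 higher, with a median of 0.655. Tpst2, a tyrosine sulfotransferase, had 127 and 48.6 CPM (0.384, 0.280 to 0.518), B4galt1, a galactosyltransferase, had 107 and 23 UMIs (0.30, 0.183 to 0.475), St3gal4, a sialyltransferase, 98.8 and 82.5 (0.835, 0.641 to 1.08) and C1galt1, which extends O-glycans, 11.8 and 16.5 (1.40, 0.70 to 2.79). Among other selectin ligands 0 of 3 counted were past 1.5-fold in either direction: Cd24a had 1.06 (0.994 to 1.14), Glg1 0.786 (0.415 to 1.44) and Spn, which encodes CD43, 1.08 (0.422 to 2.65), while Cd34 had 2 and 1 UMIs.

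The list around CD44 and hyaluronan had 1 of 6 higher and 2 lower, with a median of 0.848. Spp1, which encodes the CD44 ligand osteopontin, had 2449 CPM in Smad3-WT and 1464 in Smad3-KO (0.598, 0.564 to 0.633). These levels came from 3943 and 1686 of its 18842 UMIs in all kept cells. The median ratio of all genes was 0.725, and the part of RNA from other cells in the Spp1 values was not tested. Msn and Ezr, linkers of CD44 to actin, had 0.801 (0.722 to 0.888) and 0.901 (0.751 to 1.08). Hyal1, a hyaluronidase, was the highest at 1.65 (0.683 to 4.07) and Vcan, a proteoglycan that binds hyaluronan, the lowest, with 42 UMIs in one library, Smad3-WT, and 1 in the other (0.0333, 0.000823 to 0.196). Vcan is also a leading gene of a monocyte-like cluster and had 333 CPM in Smad3-WT monocyte-like cells. The 6 monocyte markers summed to 430 CPM in Smad3-WT and 492 in Smad3-KO neutrophil-like cells, but unevenly over the clusters. In Smad3-WT the sum was 724 in the Ifit3b and Egr1 cluster and 140 to 197 in the others. In Smad3-KO it was 1665 in the Ngp and Camp cluster, 485 in the G0s2 and Cxcr2 cluster and 274 in the Il1a and Csf3 cluster. The part of monocyte RNA in the Vcan values was not tested.

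Across 15 class and library units of at least 30 cells and 7353 genes, the genes most like each member by Pearson's r of log2(CPM + 10) were named as a description, since units of 1 library share its depth and free RNA. For Itgam they were Fcgr3 (r = 0.940), Ccl6 (0.928) and Fcgr4 (0.926), of which the Fcgr genes encode antibody receptors of myeloid cells. For Itgb2 they were Orai1 (0.944), Cklf (0.935) and Capza1 (0.894), and Itgam itself stood at 0.563. For Itgal they were Cd82 (0.931), Hcst (0.917) and Lbr (0.912), and Selplg stood at 0.854 with it. For Itgax they were Lsp1 (0.791), Jaml (0.769) and Gsdmd (0.761), the weakest set. For Itga4 they were Dock2 (0.945), Sash3 (0.922) and Akna (0.921), for Selplg Myl12b (0.905), Ccdc82 (0.901) and Rab8a (0.897), and for Cd44 Cdkn1a (0.978), Arrdc4 (0.967) and Gpr35 (0.963).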

How the data were processed

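The deposited matrix holds counts of UMIs, made by the authors with Cell Ranger 3.0.2 on mm10, for 4116 Smad3-WT and 2514 Smad3-KO barcodes in 1 table. Barcode suffixes were tied to genotypes by the authors' deposited averages, a signal per gene: the UMIs of 1 suffix, scaled to a total of 1311, matched 1 genotype to within 4.91e-09 (Smad3-KO) and 3.58e-08 (Smad3-WT) over 19114 genes, where the wrong pairing was off by up to 31.8. Fold changes and p-values of the authors' own comparisons and their cluster averages were left out. The filter on cells required 200 genes, a mitochondrial share under 10% and between 500 and 20000 UMIs, as in the study's methods, and its upper limit removed 382 Smad3-WT and 0 Smad3-KO barcodes. Clusters came from scanpy 1.11.5 and igraph 0.11.9 (2000 variable genes without the members and pathway lists, 100 components, 15 neighbours, Louvain, resolution 2.0, chosen after the cluster tables were seen because at 1.0 cytotoxic cells fell among T-like cells). A cluster was named when 3 or more markers of 1 class were each seen in 10% of its cells and raised 2-fold over the remaining cells, unless its top 10 genes held more markers of another class than of its own, or its cells were shallow with no own marker there. CPM carry exact Poisson intervals, shares Clopper-Pearson intervals, and ratios exact intervals from the split of UMIs, all at 95% and covering counting error only. The ratio and its interval were tested on simulated data. No doublet caller was run, cells with markers of another lineage were left out in an alternative. There were 73 barcode sequences in both libraries, carried by 24 and 46 kept cells. All members were named. Of each pathway list, the 3 genes with the most UMIs and those with the highest and lowest ratio were named. Some genes that this rule names are not reported here. Members and lists were chosen with earlier results of these data known, and both motifs after others had been searched in the same windows. Sequences are from RefSeq (GRCm38.p6).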

Additional observations from a re-analysis of the deposited data

Results flagged for a closer look

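Selplg was flagged because its ratio of Smad3-KO to Smad3-WT lies on opposite sides of 1 in different cells, each time with a counting interval that excludes 1. It was 0.546 in neutrophil-like cells, 1.55 in the H2-Eb1 and Mgl2 cluster and 1.53 in the Gzma and Nkg7 cluster. The median ratio of all genes in the same cells was 0.725, 0.976 and 0.931. Divided by the shift of all genes the neutrophil-like ratio of Selplg was 0.753, and with cells thinned to 500 UMIs it was 0.682. In classes with fewer cells the Selplg ratio was 0.601 (dendritic-like) and 1.80 (macrophage-like), also with intervals that exclude 1. Within neutrophil-like cells the direction was not uniform, since it was 1.33 (1.03 to 1.69) in the G0s2 and Cxcr2 cluster, the neutrophil-like cluster with over 100 cells of each library. The difference between these ratios was not tested, since each genotype has 1 library. Opposite sides of 1 were not particular to Selplg once the small dendritic-like class is read. Cd44 was 0.597 in neutrophil-like and 2.49 in dendritic-like cells, and Itga4 4.37 in monocyte-like and 0.258 in dendritic-like cells. Itgax was 0.559 in neutrophil-like and 6.97 (1.06 to 295) in dendritic-like cells, the latter from 1 Smad3-WT UMI. Levels of markers of other cells are given above for neutrophil-like cells, the H2-Eb1 and Mgl2 cluster and the Gzma and Nkg7 cluster. In monocyte-like cells the neutrophil markers stood at a median of 0.132 of the neutrophil-like level in Smad3-WT and 0.109 in Smad3-KO. In macrophage-like cells these values were 0.0326 and 0.00767, and in dendritic-like cells 0.0338 and 0.0522. B and T markers are not given for these classes. The part of other cells in the ratios was not tested.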

How the results depend on the processing

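No paired analysis was possible because each genotype has 1 library, and no library could be left out. In neutrophil-like cells the members' median ratio (0.671) ran from 0.620 to 0.926 over 15 alternatives and was under 1 in each. It was 0.926 with median-of-ratios scaling and 0.819 in neutrophil-like clusters with at least 100 cells of each library, the latter chosen after seeing the data. The number of members past 1.5-fold (3) was 0 with that scaling, where 46.9% of all genes were past it in either direction. It was 5 without the immature cluster, where 51.0% of 5571 genes were lower, and 0 at 2-fold. It was 4 with the MetaCell limits, with 30 principal components and with totals without mitochondrial and ribosomal protein genes. At resolution 0.1 or 1.0, or with the Mreg and Lcn2 cluster added to the class, it was also 4. Itgam was the added gene in each, at 0.620 to 0.661. The share of all genes was not counted in these settings or at 2-fold, so these counts are not read as a result about the members. Ratios whose interval excluded 1 turned for Itgam (1.27) and Selplg (1.33) in the shared cluster and for Itgb2 (1.06) with the scaling. Itga4 and Itgal, whose intervals include 1, lay on either side of 1 across alternatives, Itga4 up to 1.21 with the scaling and Itgal down to 0.628 in the shared cluster. The percent of all genes past 1.5-fold in either direction (55.6) was 53.5 with at least 50 UMIs, 66.7 with at least 1 UMI and 46.9 with the scaling. The Itgam level of neutrophil-like over T-like cells (27.3) was 8.19 with the MetaCell limits on cells, 9.24 with 30 principal components and 95.5 without cells with markers of another lineage. In macrophage-like cells, with 28 Smad3-KO cells, the members' median (1.80) was 0.983 without cells with markers of another lineage, and Itgam (0.438) was 1.68 with no filter on cells, 1.12 with the MetaCell limits and 1.05 at resolution 1.0, added after seeing the data. The causes were not tested.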
